A study of Mus musculus with 8 samples.

Results

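Malat1 and Neat1 are long non-coding RNAs (lncRNAs) that stay in the nucleus, and both were compared between WT and Mettl3 KO mouse hearts. Their rows were found by gene symbol, which gave 2 of the 23045 genes of the table and 2 of its 3605 lncRNA genes. Total RNA of hearts had been sequenced in 8 libraries, 4 per genotype. WT mice were Mettl3lox/lox, and Mettl3 KO mice were Mettl3lox/lox:alphaMHC-MerCreMerpos, so that both genotypes carried the loxP-flanked Mettl3 alleles and the Cre transgene was in the Mettl3 KO group only. The αMHC promoter drives MerCreMer, a tamoxifen-activated Cre, in cardiomyocytes and leaves Mettl3 intact in the other cells of the heart. Mice of both genotypes were 10 to 16 weeks old and received tamoxifen intraperitoneally at 100 µg per g for 7 days. The list of animals in the study is headed by C57Bl6, and the time from tamoxifen to harvest was not given in the sources used here. An effect of the transgene itself cannot be told apart from that of the deletion. Values are DESeq2-normalized read counts, and they summed to between 2839589 and 2916986 per library.

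Malat1 gathers in nuclear speckles, the storage sites of splicing factors, and it is among the most abundant nuclear RNAs of many tissues. Neat1 is made from the neighboring gene as a short polyadenylated and a long transcript, and the long one is the scaffold on which paraspeckles form. Both RNAs receive a 3′ end in an unusual way. RNase P cuts in front of a tRNA-like fold, RNase Z trims the released small RNA, and the end left on the long RNA is held by a triple helix between U-rich stretches and an A-rich tract. METTL3 is the catalytic subunit of the writer of N6-methyladenosine (m6A), a mark that is found on both RNAs and is placed on adenosines in motifs such as GGACT.

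In the table (mm39), Malat1 (ENSMUSG00000092341) lies on chromosome 19 from 5845717 to 5852704 on the minus strand. Neat1 (ENSMUSG00000092274) lies on the same strand from 5874736 to 5895898, and 22031 bases separate the genes. The sequences shown here come from GENCODE transcripts of an earlier build (GRCm38), since it was the one at hand. The single-exon Malat1-201 has 6983 bases, the single-exon long transcript Neat1-201 has 20771, and the short transcript Neat1-202 has 3004 bases in 2 exons.

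The 3′ ends are shown because they hold the elements that form the triple helix of Malat1 and of the long Neat1 transcript. Capitals mark a U-rich stretch, written as T, and the A-rich tract with which each stretch ends.
Malat1 end: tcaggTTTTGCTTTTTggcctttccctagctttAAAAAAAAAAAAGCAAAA
Neat1 end: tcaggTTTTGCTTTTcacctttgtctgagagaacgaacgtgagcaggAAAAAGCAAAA
They are on the minus strand of GRCm38 at chr19:5795982-5796032 and chr19:5824708-5824765, which is bases 6641 to 6691 of Malat1-201 and 20714 to 20771 of Neat1-201. In the annotation 292 bases follow the A-rich tract of Malat1, and 0 follow that of Neat1. Searched on the transcript strand, TTTGCTTTT followed within 100 bases by AAAGCAAAA was found in 2 of 2206 tested lncRNA genes with a transcript (0.0907%), which were Malat1 and Neat1. Among all 19546 tested genes with a transcript 4 held the pair (0.0205%), the others being the protein-coding Slc44a3 and Nbeal1. The letters were taken from the ends of Malat1 and Neat1 themselves, so this share describes how rare the arrangement is.

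GGACT is one form of the sequence that the m6A writer prefers. It was searched on the transcript strand, and occurs 9 times in Malat1-201, or 1.29 per kb. Neat1-201 holds 23, or 1.11 per kb, of which 6 are within the 3170 bases spanned by the short transcript and 17 in the 17599 bases beyond. Neat1-202 has 2.00 per kb. Over 1499 tested lncRNAs of at least 1000 bases the median was 0.909 per kb, and Malat1-201 stood above 69.7%, Neat1-201 above 60.8% and Neat1-202 above 90.0% of them. The first 4 sites of each RNA are shown with the motif in capitals, since they lie in the 5′ part of each RNA.
Malat1 site 1: aaagctactaGGACTgaagtaaaaa
Malat1 site 2: gatgacaaaaGGACTtttgataaca
Malat1 site 3: attttgcattGGACTtgagctgagg
Malat1 site 4: aagctaggaaGGACTgaggagccag
Neat1 site 1: ggagacgggtGGACTgggggccctt
Neat1 site 2: cagtggggcaGGACTaggtgcgtag
Neat1 site 3: tatggaaggtGGACTtagcttcgct
Neat1 site 4: tgccctctctGGACTttgcctaggt
The motif of Malat1 site 1 is inside bases 1100 to 1124 of Malat1-201 and that of site 4 inside bases 1376 to 1400. The windows shown for Neat1 run from base 337 to base 752 of Neat1-201, within the span of the short transcript. On the minus strand of GRCm38 the Malat1 windows lie between chr19:5801273-5801297 and chr19:5801549-5801573, and the Neat1 windows between chr19:5844727-5844751 and chr19:5845118-5845142. A match of letters is not a measured m6A site, and m6A was not measured in these libraries.

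The level of Malat1 did not pass the test between genotypes. WT libraries 1 to 4 had 4947, 4747, 4901 and 5281 normalized read counts of Malat1. Mettl3 KO libraries 1 to 4 had 5514, 5067, 5315 and 4757. The groups overlapped, with the lowest WT and the lowest Mettl3 KO library almost level. Means were 4969 ± 225 in WT and 5163 ± 327 in Mettl3 KO hearts (SD, n = 4 each). On the log2(value + 1) scale the difference, Mettl3 KO minus WT, was 0.05 with an SE of 0.04 and a 95% interval of -0.03 to 0.14 (limma adjusted p = 0.505). As a fold this is 1.04, with an interval from 0.980 to 1.10. Leaving out 1 library at a time gave log2 differences of 0.02 to 0.09, and Malat1 passed in none of these fits. In bulk tissue fewer cells of a type and less RNA per cell cannot be told apart.

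Neat1 did not pass the test either. WT libraries 1 to 4 had 3170, 2989, 3791 and 3110 normalized read counts of Neat1. Mettl3 KO libraries 1 to 4 had 3653, 2873, 2862 and 2925. WT library 3 and Mettl3 KO library 1 stood above the other libraries of their genotype, and the other 3 Mettl3 KO libraries were below every WT library. Means were 3265 ± 359 in WT and 3078 ± 384 in Mettl3 KO hearts (SD, n = 4 each). The log2 difference was -0.09 with an SE of 0.07 and a 95% interval of -0.23 to 0.05 (limma adjusted p = 0.530), a fold of 0.942 with an interval from 0.855 to 1.04. The result for Neat1 depended on which library was left out. Without Mettl3 KO library 1 Neat1 was lower in Mettl3 KO hearts by a log2 difference of -0.17 (SE 0.05, limma adjusted p = 0.0471). Without WT library 3 the difference was -0.013 (adjusted p = 0.946), and without both of these libraries it was -0.10 (adjusted p = 0.102). That last selection was chosen after seeing the data.

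**Figure D1:**
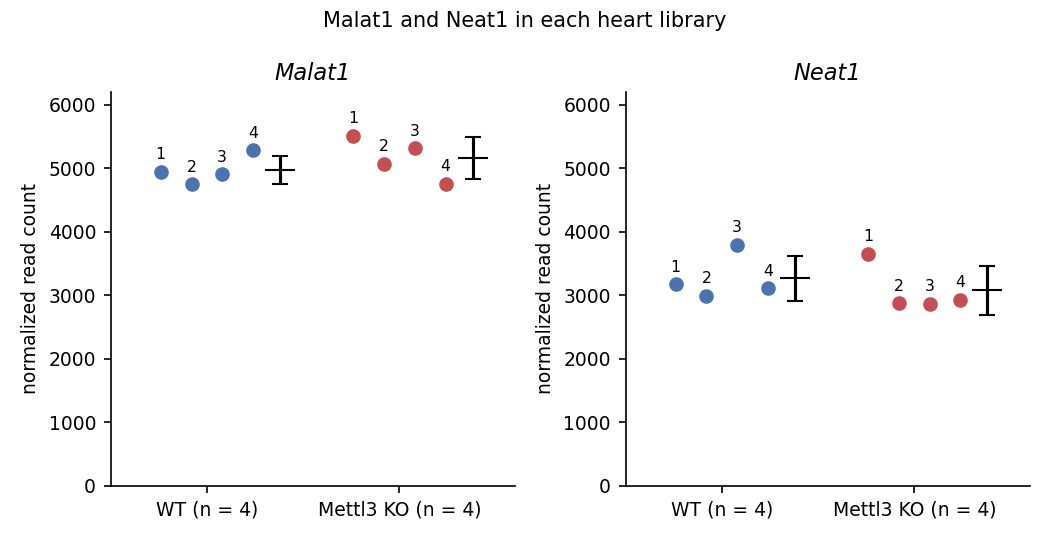
Normalized read counts of Malat1 and Neat1 (vertical axes, from 0) in each library, with the library number above each point and the mean ± SD of 4 libraries in black. Malat1 lies between 4747 and 5514 in all 8 libraries, and Neat1 is highest in WT library 3 (3791) and Mettl3 KO library 1 (3653).

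For scale, limma called 1607 of the 20313 genes tested, a share of 7.91%, with 4.72% higher and 3.19% lower in Mettl3 KO hearts. Among 2782 lncRNA genes tested the share was 4.06%, with 0.863% higher and 3.2% lower. The median log2 difference was -0.01 over all genes and -0.10 over lncRNA genes, against 0.05 for Malat1 and -0.09 for Neat1. The targeted gene Mettl3 had 105, 133, 118 and 107 normalized read counts in WT libraries and 74, 68, 69 and 78 in Mettl3 KO libraries, a log2 difference of -0.67 (SE 0.10, limma adjusted p = 0.000184). Hearts also hold cells that do not express the Cre, and Mettl3 was not measured by cell type.

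By normalized read count Malat1 was the highest and Neat1 the second highest of the lncRNA genes, at means of 5066 and 3172 over all libraries. The next were Oip5os1, the mouse Cyrano RNA, at 2227 and Kcnq1ot1 at 1234. Over all genes Malat1 ranked 10 and Neat1 20. Per kb of exon the order differed. Malat1 had 725 normalized read counts per kb, with a range of 680 to 790 over libraries, and remained the highest lncRNA and ranked 5 among 19546 genes with a length. Ranks at this level are subject to the removal of duplicate reads, which keeps at most 1 read per start position. Neat1 had 153 per kb of its long transcript, with a range of 138 to 183, and ranked 10 among 2206 lncRNAs and 459 among all genes. The cardiac lncRNA Mhrt, which is made from the Myh6 and Myh7 locus, lay between them at 512 per kb. The length of Neat1 is that of the long transcript, and gene-level counts do not separate the reads of the short one.

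Malat1 made up 0.174% ± 0.00748 of the summed values of a library in WT and 0.179% ± 0.00918 in Mettl3 KO hearts (SD, n = 4 each; exact permutation test over libraries, two-sided, p = 0.4). The share of Neat1 was 0.114% ± 0.0119 in WT and 0.107% ± 0.0124 in Mettl3 KO hearts (SD, n = 4 each; exact permutation p = 0.429). Malat1 exceeded Neat1 in each library, from 1.29 times in WT library 3 to 1.86 times in Mettl3 KO library 3. The log2 ratio of Malat1 to Neat1, in which the scaling of libraries cancels, was 0.61 ± 0.17 in WT and 0.75 ± 0.13 in Mettl3 KO hearts (SD, n = 4 each), a difference of 0.14 (exact permutation p = 0.257). As the reads of Malat1 hardly differed between libraries after duplicates were removed, this ratio moved mainly with Neat1. The smallest p that 4 against 4 libraries can give is 0.0286. With 3 values tested this way, each p adjusted by Benjamini-Hochberg was 0.429.

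The spread of both RNAs was set against counting error. Normalized values of Malat1 had a coefficient of variation of 4.53% in WT and 6.33% in Mettl3 KO hearts, where counting alone gives about 1.40% and 1.41%. For Neat1 these were 10.98% and 12.48%, where counting gives 1.73% and 1.82%.

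The reads behind the values of Malat1 hardly differed between libraries. Each library's factor, the value that 1 read stands for, was recovered from the spacing of low values and lay between 0.927 and 1.11. Dividing by it gave 5148, 5120, 5108 and 5032 Malat1 reads in WT libraries 1 to 4 and 4974, 5125, 5084 and 5114 in Mettl3 KO libraries 1 to 4. Their coefficient of variation over all 8 libraries was 1.13%, below the 1.40% of counting error. Neat1 had 3299, 3224, 3951 and 2963 reads in WT libraries and 3295, 2906, 2737 and 3144 in Mettl3 KO libraries, a coefficient of variation of 11.5% against 1.77% from counting. The authors removed duplicates, and of single-end reads that start at the same base on the same strand this keeps 1. Malat1 reads came to 71.2% to 73.7% of the 6983 bases of the transcript, and Neat1 reads to 13.2% to 19.02% of the 20771 bases of the long transcript. Set against the 3170 bases spanned by the short transcript alone, Neat1 reads would be 86.4% to 125% of its bases.

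Values of Malat1 moved with the factor of the library. Within genotypes the log2 value of Malat1 and the log2 factor had a Pearson r of 0.994 over 8 libraries, and that of Neat1 an r of 0.415. The points share the factor, since each value is reads times factor. The mean factor was 0.974 ± 0.0525 in WT and 1.02 ± 0.0764 in Mettl3 KO libraries (SD, n = 4 each), a log2 difference of 0.06 beside the 0.05 of Malat1. The medians of other genes rose with reads per base, though single genes departed from this. Over 1290 genes with at least 500 reads on average, the median r with the factor was 0.170 for the 661 genes with reads at under 10% of their exon bases, 0.418 for 438 genes at 10 to 20%, 0.661 for 154 genes at 20 to 40%, 0.811 for 27 genes at 40 to 60% and 0.978 for 10 genes at 60% or more. Mybpc3, named after its values were seen, was at 68.2% of its bases and had an r of 0.600. Malat1 ranked 4 of the 1290 by this percentage and Neat1 324. For a transcript near 1 read per start position a difference in RNA level gives a smaller difference in reads, and the interval given for Malat1 does not include this. The size of this effect on Malat1 was not tested.

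**Figure D2:**
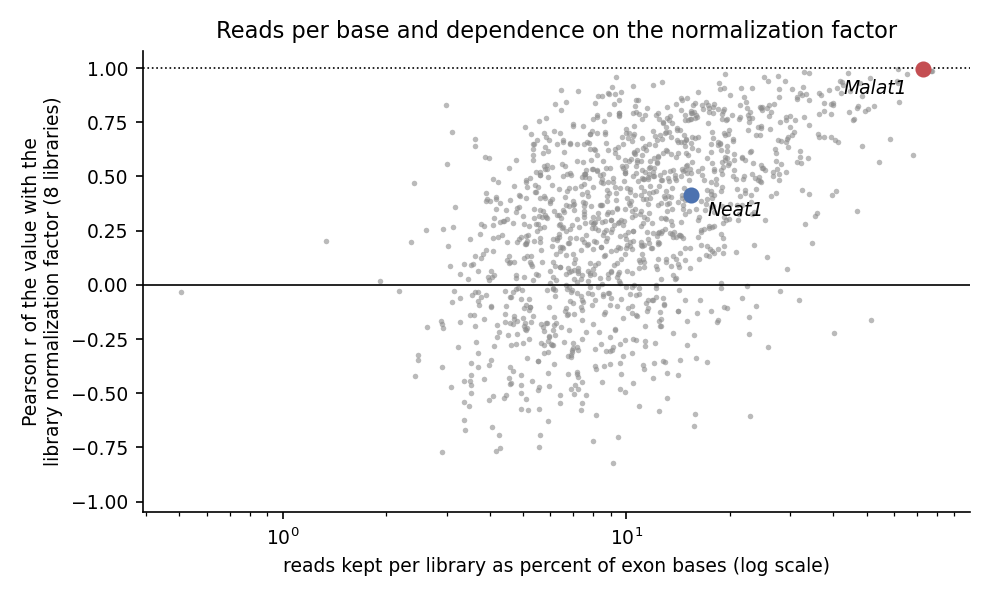
Each point is 1 of 1290 genes, with the reads kept per library as a percentage of exon bases (horizontal, log axis) and the Pearson r between its log2 value and the log2 normalization factor, centered within genotypes, over 8 libraries (vertical). Malat1 sits at the upper right with an r of 0.994, and Neat1 lies at 15.4% of its bases with an r of 0.415.

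The genes whose pattern over libraries was most like that of Malat1 included heart muscle genes. Likeness was the Pearson r of log2(value + 1) centered within genotypes, over 8 libraries and 12027 genes with a mean of at least 20. The points share libraries and their factors, and no test applies. Closest to Malat1 were Pln (r = 0.998), which encodes phospholamban, the brake on the calcium pump of the sarcoplasmic reticulum, and Mb (0.990), which encodes myoglobin. Actc1 (0.988) for cardiac actin, Hspb7 (0.986) for a small heat shock protein of heart muscle and Eif4g2 (0.986) for a translation initiation factor followed. Reads of Pln, Actc1 and Mb came to 74.4%, 77.1% and 61.8% of their exon bases, and those of Hspb7 and Eif4g2 to 34.0% and 19.4%. Their own r with the factor was 0.974 to 0.996.

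Neat1 shared its pattern with other genes. Closest were Bcl2l13 (r = 0.985), a mitochondrial outer membrane protein of mitophagy, Fam171a1 (0.983), Entpd5 (0.974), a nucleotide hydrolase of the endoplasmic reticulum, Tnfaip8 (0.973), a regulator of cell death, and Cdnf (0.972), a neurotrophic factor of the endoplasmic reticulum. Each was highest in WT library 3 among WT and in Mettl3 KO library 1 among Mettl3 KO libraries, as Neat1 was. Bcl2l13, for example, had 457, 433, 519 and 453 normalized read counts in WT libraries and 586, 494, 511 and 513 in Mettl3 KO libraries. Of these genes Tnfaip8 fell, from 319, 304, 383 and 296 to 262, 192, 200 and 192 (log2 difference -0.62, limma adjusted p = 0.000118). The r between Malat1 and Neat1 themselves was 0.371, and 0.234 after scaling libraries to equal summed values, where Tnfaip8 ranked 6 for Neat1.

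**Figure D3:**
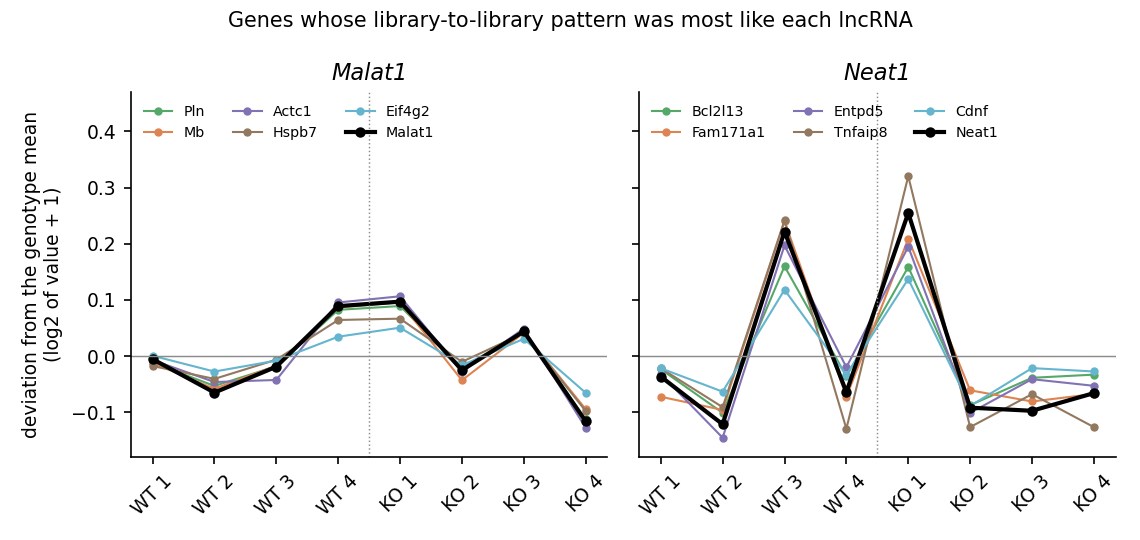
Deviation of log2(value + 1) from the genotype mean (vertical) in each of 8 libraries (horizontal) for Malat1 or Neat1, in black, and the 5 genes most like it. The lines of Malat1 rise in WT library 4 and Mettl3 KO libraries 1 and 3, whereas those of Neat1 peak in WT library 3 and Mettl3 KO library 1.

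In WT library 3 and Mettl3 KO library 1, where Neat1 was high, the summed value of atrial muscle genes was the lowest of each genotype. The summed value of 5 atrial markers (Myl4, Myl7, Sln, Nppa and Bmp10) was 432, 384, 192 and 429 in WT libraries 1 to 4 and 598, 973, 1072 and 1392 in Mettl3 KO libraries 1 to 4. Bmp10, a growth factor of the atria, was listed at 0 in all WT libraries and in Mettl3 KO library 1. Nppa, the precursor of a natriuretic peptide, was at 282, 243, 175 and 292 in WT libraries and at 452, 410, 508 and 481 in Mettl3 KO libraries, so that it was not lowest in Mettl3 KO library 1. All 5 rose in Mettl3 KO hearts in the fit to all libraries, beside 4.72% of all genes that rose. However, Myl4 and Myl7 did not pass without Mettl3 KO library 2, 3 or 4. By robust limma and by limma without a trend Myl4, Myl7, Sln and Bmp10 did not pass, Nppa did not pass without a trend, and limma voom called 4 of the 5, without Bmp10. The part of atrial tissue in the level of Neat1 was not tested.

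Markers of other cells were checked in the same libraries, and their counts stand beside 4.72% of all genes that rose and 3.19% that fell. Of 8 cardiomyocyte markers 1 fell (Ryr2, a call that was lost without a trend) and 7 did not pass the test, with summed values of 90581 to 97179 in WT libraries and 87923 to 98408 in Mettl3 KO libraries. Of 8 fibroblast markers 7 rose, with sums of 3648 to 4172 and 4711 to 5671, and of these Lum and Postn alone passed by limma without a trend. Of 8 endothelial markers 1 rose and 3 fell, with sums of 4825 to 4975 and 4407 to 4786. Vwf, Kdr, Tie1 and Cdh5 lost these calls without a trend, and Cdh5 also without WT library 2 or Mettl3 KO library 3. No marker of smooth muscle and pericytes (0 of 8), macrophages (0 of 8), lymphocytes (0 of 8) or blood cells (0 of 6) passed the limma test, although 3, 1, 1 and 2 of them had an unadjusted p under 0.05 (20.6% of all genes), and limma voom called 0 of each. Tagln and Myh11, of smooth muscle, passed without Mettl3 KO library 1, the omission under which Neat1 was called, and Acta2 joined them without WT library 3 and Mettl3 KO library 1 together. No marker of these lists was at 0 in all libraries. Their part in the levels of Malat1 and Neat1 was not tested.

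The genes around Malat1 and Neat1 were examined next. Within 200 kb of either lay 27 other genes, of which 25 had a mean of at least 1 and were tested. Frmd8 (chromosome 19, 5899730 to 5925302, minus strand), 3831 bases upstream of the start of Neat1, was the 1 that passed. Frmd8 encodes a partner of the iRhom proteins, which carry the sheddase ADAM17 to the cell surface. It had 32, 36, 37 and 37 normalized read counts in WT libraries and 20, 17, 25 and 20 in Mettl3 KO libraries, so that the groups did not overlap. The log2 difference was -0.77 (SE 0.18, limma adjusted p = 0.00891), and it passed under each of 20 alternative settings, with values of -0.87 to -0.69. This share of the neighbors (1 of 25, or 4%) stands beside 7.91% of all genes.

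The other neighbors did not pass the test in all 8 libraries. Frmd8os, an antisense lncRNA on the plus strand that overlaps the start of Neat1 and the 3′ end of Frmd8, had 21, 9, 18 and 10 normalized read counts in WT libraries and 9, 10, 9 and 12 in Mettl3 KO libraries (log2 difference -0.42, SE 0.29, limma adjusted p = 0.472). Reads were counted by strand, and reads over more than 1 gene were left out. Ltbp3, which encodes a latent TGF-β binding protein, had 239, 223, 279 and 208 in WT libraries and 279, 243, 291 and 276 in Mettl3 KO libraries (log2 difference 0.20, SE 0.08, adjusted p = 0.142). It passed without WT library 3 (adjusted p = 0.0258). Gm37376 lies on the opposite strand within Malat1 and had 3 to 6 in each library.

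The small RNA gene Gm55522 (5874680 to 5874735, minus strand) abuts the 3′ end of Neat1, where RNase P cuts. Its normalized read counts were 1, 1, 2 and 1 in WT libraries and 0, 0, 0 and 2 in Mettl3 KO libraries, below the limit for testing. At 3 reads or fewer in each library no difference was detectable at this depth.

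**Figure D4:**
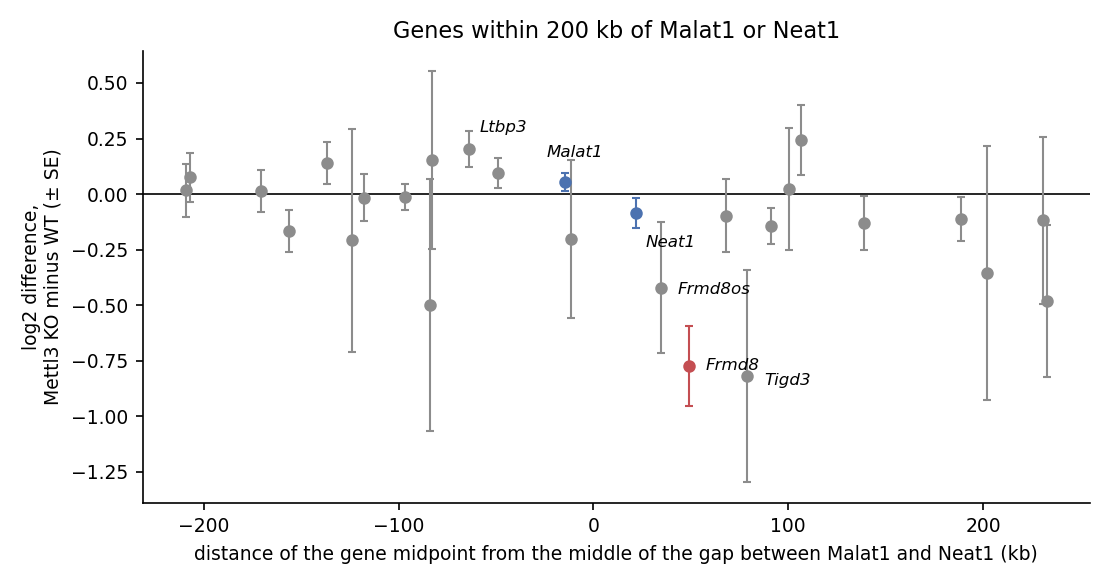
Log2 difference between genotypes (vertical, ± SE, 4 libraries per group) for each tested gene within 200 kb, placed by the distance of its midpoint from the middle of the gap between Malat1 and Neat1 (horizontal, kb). Frmd8, in red, is the neighbor that passed the limma test, and Malat1 and Neat1 are in blue near 0.

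Of 20 paraspeckle proteins tested, 0 rose, 1 fell and 19 did not pass (5%, beside 7.91% of all genes), with a median log2 difference of -0.06. At an unadjusted p under 0.05 there were 4, where 20.6% of all genes have one. Ewsr1, which did not pass (limma adjusted p = 0.164), had 411 to 451 normalized read counts in WT libraries and 381 to 398 in Mettl3 KO libraries, without overlap. The core proteins that bind Neat1 first are Nono, Sfpq and Pspc1. Nono had 244 to 253 normalized read counts in WT libraries and 224 to 258 in Mettl3 KO libraries, Sfpq 582 to 667 and 560 to 622, and Pspc1 220 to 255 and 218 to 247. The 1 that fell was Smarca4, the Brg1 ATPase of chromatin remodeling complexes, at 553, 620, 588 and 579 in WT libraries and 494, 510, 536 and 520 in Mettl3 KO libraries (log2 difference -0.18, SE 0.05, limma adjusted p = 0.0257). It passed under 12 of 20 alternatives, and not without WT library 2, 3 or 4 or Mettl3 KO library 1, 2 or 4.

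Nuclear speckle proteins, with which Malat1 resides, gave a similar count. Of 20 tested, 0 rose, 1 fell and 19 did not pass (5%, beside 7.91% of all genes), with 4 at an unadjusted p under 0.05, near the 20.6% of all genes, and a median of -0.02. The scaffolds Son and Srrm2, on which speckles are built, had log2 differences of 0.03 (limma adjusted p = 0.678) and -0.02 (0.841). The splicing factor Srsf3 fell from 315, 321, 309 and 330 to 242, 304, 254 and 272 normalized read counts, without overlap (log2 difference -0.25, SE 0.07, adjusted p = 0.022). It passed under 13 of 20 alternatives, and not without WT library 1, 2 or 4 or Mettl3 KO library 1 or 3.

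Among 12 genes of RNase P and RNase Z, which make the 3′ ends of Malat1 and Neat1, 2 rose and 10 did not pass (16.7%, beside 4.72% of all genes that rose), with 5 at an unadjusted p under 0.05 (20.6% of all genes) and a median log2 difference of 0.10. Pop7, an RNase P protein, had 18, 26, 10 and 20 normalized read counts in WT libraries and 44, 34, 39 and 28 in Mettl3 KO libraries (log2 difference 0.99, SE 0.24, limma adjusted p = 0.0111). Rpp38, another subunit, had 20, 15, 22 and 30 in WT libraries and 49, 34, 38 and 35 in Mettl3 KO libraries (log2 difference 0.84, SE 0.20, adjusted p = 0.0117). For both the groups did not overlap, and both passed under 17 of 20 alternatives. Neither passed without WT library 3 and Mettl3 KO library 1 together, Pop7 not without Mettl3 KO library 3 and Rpp38 not without WT library 2. Elac2, the RNase Z, had 123 to 153 in WT libraries and 146 to 177 in Mettl3 KO libraries (log2 difference 0.20, adjusted p = 0.195). The RNA subunit Rpph1 was at 1 to 6 in each library.

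Of 15 genes that write, erase or read m6A in the nucleus, 3 rose, 1 fell and 11 did not pass (26.7%, beside 7.91% of all genes, of which 4.72% rose and 3.19% fell). The 1 that fell was Mettl3 itself, which the genotype targets and which is part of the 26.7%. At an unadjusted p under 0.05 there were 5, beside 20.6% of all genes. Wtap, the writer subunit that holds the complex in nuclear speckles, had 171, 140, 149 and 165 normalized read counts in WT libraries and 196, 198, 201 and 195 in Mettl3 KO libraries (log2 difference 0.34, SE 0.08, limma adjusted p = 0.00639). The eraser Alkbh5 rose by a log2 difference of 0.21 (SE 0.05, adjusted p = 0.0121), but did not pass without WT library 1 or Mettl3 KO library 3. By limma without a trend neither Wtap nor Alkbh5 passed. Mettl16, a separate m6A writer that also binds the triple helix of Malat1, had 220, 236, 236 and 234 in WT libraries and 268, 259, 263 and 279 in Mettl3 KO libraries (log2 difference 0.21, SE 0.06, adjusted p = 0.0418). It passed under 6 of 20 alternatives, and failed to pass when any 1 library was left out. Mettl14, the partner of METTL3 in the writer, was at 178 to 196 and 172 to 185 (adjusted p = 0.602), and the nuclear reader Ythdc1 at 445 to 478 and 447 to 544 (adjusted p = 0.355).

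Other lncRNAs were read against 4.06% of lncRNA genes called and 14.3% at an unadjusted p under 0.05. Of 14 other nuclear lncRNAs 0 passed the limma test, with 4 at an unadjusted p under 0.05 and 0 by limma voom, and their median log2 difference was 0.04. Kcnq1ot1, which silences an imprinted cluster, had 1124, 1187, 1178 and 1198 normalized read counts in WT libraries and 1400, 1357, 1153 and 1276 in Mettl3 KO libraries (log2 difference 0.14, adjusted p = 0.0857). It passed without Mettl3 KO library 3 (adjusted p = 0.0139). Rian passed without WT library 3 and without WT library 3 and Mettl3 KO library 1 together. In the other direction, Airn and Dleu2 had log2 differences of -0.16 and -0.13 (limma adjusted p = 0.129 and 0.147). For Dleu2 the groups did not overlap. Tug1, annotated here as protein-coding and so outside those shares of lncRNA genes, had a log2 difference of -0.06 (adjusted p = 0.635). Of 11 snoRNA host and cytoplasmic lncRNAs 0 passed the limma test, 0 had an unadjusted p under 0.05 and limma voom called 0, with a median of 0.09. Norad, which binds Pumilio proteins, had a log2 difference of -0.14 (adjusted p = 0.323) and the snoRNA host Gas5 one of 0.05 (adjusted p = 0.886).

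**Figure D5:**
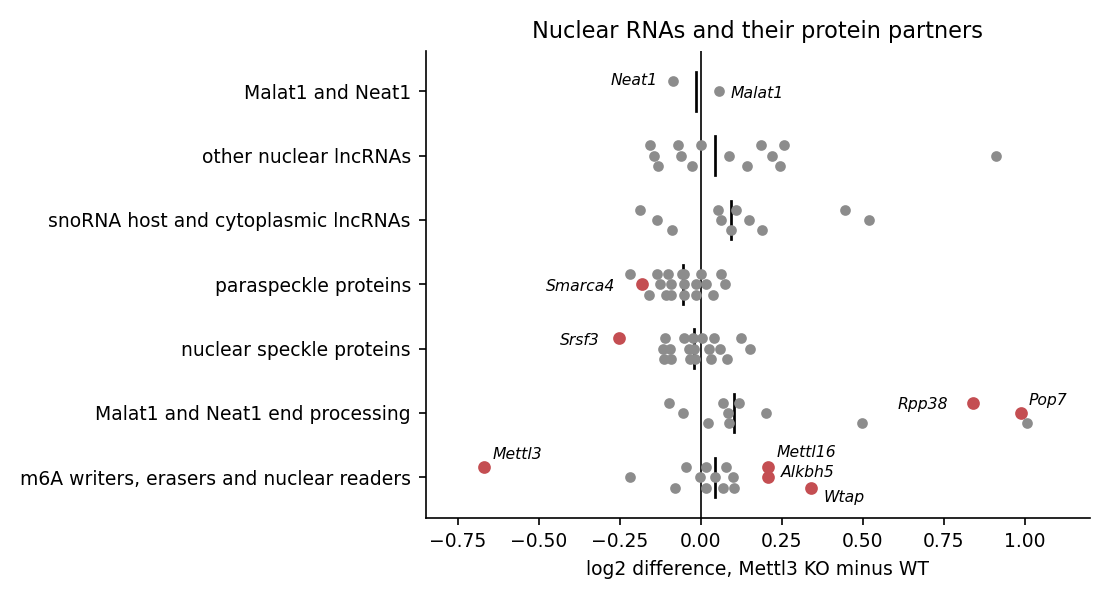
Log2 difference between genotypes (horizontal, 4 libraries per group) for each tested gene of 7 lists (rows), with the median of each list as a black bar. Genes past the limma threshold are red and named, and Malat1 and Neat1 lie on both sides of 0.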

How the data were processed

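Malat1 and Neat1 were followed in stranded single-end total RNA heart libraries, 4 per genotype. As the methods of the study state, reads were trimmed by the authors (Trimmomatic 0.39), aligned to mm39 (STAR 2.7.11a), cleared of duplicates (Picard 3.1.1) and of multi-mapping, ribosomal and mitochondrial reads, counted over exons by strand (featureCounts 2.0.4) and normalized with DESeq2 1.36.0. The deposited values are therefore a score, normalized counts rounded to whole numbers, and no count model was the main test. limma voom, also made for raw counts, served as an alternative only. Without molecular identifiers, duplicate removal can lower the values of abundant transcripts. The design had allowed for raw counts, and its second choice was used.

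Genes with a mean of at least 1 entered limma 3.58.1 (R 4.3.3) as log2(value + 1), with a trend and genotype as the only term. All tests were two-sided, with Benjamini-Hochberg adjustment over 20313 genes and a threshold of 0.05. This scale understates changes of low genes. The labels do not say that libraries came from separate animals, so p-values measure the spread between these libraries, which may be technical. The factor behind each library was estimated by maximum likelihood from low values, and the recovered reads came to 2631267 to 3062466 per library. Both steps were tested on simulated data. Counting errors cover counting only.

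Named were Malat1, Neat1, genes within 200 kb of them, members of the lists of protein partners, lncRNAs and cell type markers (those past the threshold and at least 2 others of each) and the 5 genes most like each. Some of these genes are not reported here by name. The 2 genes and the lists were chosen with earlier results of these data known. Lengths came from GENCODE (GRCm38), matched by identifier for 96.2% of tested genes, and table locations are mm39. Alternatives were a pseudocount of 0.5, no filter or a mean of at least 10, other scalings, limma voom, no trend, robust limma, the replicate number as a block and each library left out. The reads per base and the joint removal of 2 libraries were added after seeing the data.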

Additional observations from a re-analysis of the deposited data

Results flagged for a closer look

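In groups of 4 libraries the gap between an extreme library and its nearest neighbor was divided by the range of the group, and a result was picked out where this passed Dixon's 95% critical value. Of 80 groups examined 8 passed, where chance gives about 4.0 for independent, normally distributed values. The groups share libraries and hold related genes, so this comparison does not measure an excess. Neat1 in Mettl3 KO hearts gave 0.92, through library 1, and its share of the library gave 0.835. Tnfaip8 gave 0.886 in the same group, through the same library. Fam171a1 gave 0.938 in WT, through library 3, and 0.938 in Mettl3 KO hearts, through library 1. These genes were chosen for their likeness to Neat1, so their flags are not separate evidence. Mettl16 in WT gave 0.875, through a low library 1. Gm55522 gave 1 in both groups, at 0 to 2 normalized read counts. The causes were not tested.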

How the results depend on the processing

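Malat1 and Neat1 kept their direction and their side of the threshold under each of 20 alternatives, with 1 exception. For Malat1, whose reads were nearly constant after duplicate removal, this does not show that its RNA level was stable. For Malat1 the log2 difference was lowest, 0.0048, after quantile normalization, and leaving out 1 library at a time gave 0.02 to 0.09. For Neat1 this gave -0.17 to -0.013, and the value without Mettl3 KO replicate 1 is the exception (-0.17, adjusted p = 0.0471). The difference in the log2 ratio of Malat1 to Neat1 was 0.06 to 0.19 with 1 library left out, that in the share of the library 0.00216 to 0.00934 percentage points for Malat1 and -0.0135 to -0.00153 for Neat1.

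Counts of calls moved more. Without a trend limma called 321 genes of all tested, 1 gene over the lists of protein partners and lncRNAs (8 in the report), 0 paraspeckle, 0 nuclear speckle and 0 end processing genes and 1 m6A gene. Robust limma called 2 paraspeckle genes. Without WT replicate 3 and Mettl3 KO replicate 1 together there were 4 calls over these lists, with 0 paraspeckle, 0 nuclear speckle, 0 end processing and 1 other nuclear lncRNA gene. With 1 library left out the counts were 1019 to 1596 for all genes, 4 to 8 over these lists, 0 to 1 paraspeckle, 0 to 1 nuclear speckle, 1 to 2 end processing, 2 to 4 m6A, 0 to 1 other nuclear lncRNA genes and 1 to 2 neighbors. Dropping libraries leaves fewer samples, and the other causes were not tested.

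Same-numbered libraries of the genotypes correlated at 0.05, 0.04, -0.04 and 0.09 (12027 genes). Between WT and Mettl3 KO libraries of different number the r was -0.185 to 0.198. Whether the shared number marks a pairing was not tested. With the replicate block the log2 difference of Malat1 was 0.05 (adjusted p = 0.552) and that of Neat1 -0.09 (0.532), and 1346 genes were called. The effect of removing duplicates on Malat1 was not tested, counts per gene do not separate the transcripts of Neat1, and low counts limit Gm55522 and Frmd8os.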
